A study of Mus musculus with 16 samples.

Results

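The cyclin-dependent kinase inhibitor genes of the mouse are Cdkn1a, Cdkn1b and Cdkn1c, which form the Cip/Kip family, and Cdkn2a, Cdkn2b, Cdkn2c and Cdkn2d, which form the Ink4 family. These 7 genes, of 26180 gene symbols with curated RefSeq transcripts, were chosen by name, and every chromatin peak that overlapped 2500 bp on either side of one of their start sites, or their gene bodies, was collected. The 6 deposited peak lists came from chromatin immunoprecipitation and sequencing of H3K4me3, H3K27me3 and Suz12 in mouse embryonic stem cells (ESCs) grown in 2 ways. LIF-ESCs received 100 units per ml of the cytokine LIF and no 4-hydroxytamoxifen (OHT). Myc-ESCs received OHT at 50 nM and no LIF. Per the study's methods, all cells were R1 ESCs that carried MycER, an exogenous fusion of Myc that OHT activates, so LIF-ESCs carried it in its inactive form. Both media contained vitamin C, and no feeder cells were used. The methods describe more than 1 MycER clone, one of them with a point-mutated Myc, and the labels do not say which gave these libraries. The question set by the design was how the chromatin state of ESCs kept by LIF differed from that of ESCs kept by Myc, and here it was asked of the genes that restrain the cell cycle.

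The Cip/Kip proteins bind cyclin and kinase complexes and block mainly those containing Cdk2, whereas the Ink4 proteins bind Cdk4 and Cdk6 and keep them from cyclin D. H3K4me3 marks active and poised promoters, H3K27me3 is the methylation placed by Polycomb repressive complex 2 (PRC2), and Suz12 is a core subunit of that complex. A promoter with both H3K4me3 and the PRC2 mark is called bivalent, a state known from developmental genes in ESCs, and the Ink4a-Arf-Ink4b locus is a classic target of Polycomb repression in dividing cells.

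All 7 inhibitor genes had an H3K4me3 peak at a start site in both cultures, and they separated by their Polycomb marks. Cdkn2a, Cdkn2c and Cdkn1c carried H3K4me3, Suz12 and H3K27me3 in both cultures. At Cdkn1c the LIF-ESC call of H3K27me3 rested on 1 short peak of 146 bp, which overlapped no Myc-ESC peak. Cdkn2b carried H3K4me3 and Suz12 in both, and H3K27me3 in Myc-ESCs only. Cdkn1b and Cdkn1a each had 1 short Polycomb peak, in Myc-ESCs only, of H3K27me3 at Cdkn1b and of Suz12 at Cdkn1a. Cdkn2d had neither mark in either culture. The labels name 16 libraries, of which 4 were inputs and 2 stood behind each list, but each list holds 1 set of peaks with no read counts. Depth is therefore unknown, no difference could be compared with replicate error, no test was run, and all values are descriptions of these 6 lists.

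The sequences before the start sites are shown for the promoters that carried a Suz12 or H3K27me3 peak in their window, with Cdkn2d as the contrast without either. Each is the 250 bases before the RefSeq start site, 5′ to 3′ on the gene's own strand, and capitals mark GGGCGG or its reverse complement CCGCCC, the GC box.
Cdkn2a, Arf start (chr4:89294620-89294869, minus strand): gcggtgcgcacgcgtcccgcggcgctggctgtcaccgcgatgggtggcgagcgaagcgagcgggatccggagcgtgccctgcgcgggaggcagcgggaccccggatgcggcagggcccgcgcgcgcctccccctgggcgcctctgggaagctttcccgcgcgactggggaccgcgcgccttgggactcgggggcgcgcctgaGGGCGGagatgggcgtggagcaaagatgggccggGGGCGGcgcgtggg
Cdkn2a, Ink4a start (chr4:89282193-89282442, minus strand): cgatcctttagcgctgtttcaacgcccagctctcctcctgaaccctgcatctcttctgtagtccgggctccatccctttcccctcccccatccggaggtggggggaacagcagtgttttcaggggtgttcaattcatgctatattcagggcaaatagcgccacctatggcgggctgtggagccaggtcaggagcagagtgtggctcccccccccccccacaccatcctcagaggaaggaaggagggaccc
Cdkn2b (chr4:89311033-89311282, minus strand): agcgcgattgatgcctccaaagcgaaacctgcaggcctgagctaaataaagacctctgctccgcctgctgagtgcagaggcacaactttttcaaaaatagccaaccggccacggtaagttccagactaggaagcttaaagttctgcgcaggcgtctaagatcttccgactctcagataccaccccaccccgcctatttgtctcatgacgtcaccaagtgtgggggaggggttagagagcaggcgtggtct
Cdkn2c, upstream start (chr4:109666757-109667006, minus strand): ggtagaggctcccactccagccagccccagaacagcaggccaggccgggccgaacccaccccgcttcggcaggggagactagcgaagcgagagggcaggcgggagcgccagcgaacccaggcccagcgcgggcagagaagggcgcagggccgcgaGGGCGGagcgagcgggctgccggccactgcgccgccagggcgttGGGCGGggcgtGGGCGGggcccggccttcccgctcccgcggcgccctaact
Cdkn2c, downstream start (chr4:109665373-109665622, minus strand): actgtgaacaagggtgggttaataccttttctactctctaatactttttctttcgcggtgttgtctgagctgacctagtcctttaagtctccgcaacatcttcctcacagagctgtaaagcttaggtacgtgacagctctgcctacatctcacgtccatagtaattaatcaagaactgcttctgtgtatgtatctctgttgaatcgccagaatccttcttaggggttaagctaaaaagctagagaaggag
Cdkn1a, downstream start (chr17:29093519-29093768, plus strand): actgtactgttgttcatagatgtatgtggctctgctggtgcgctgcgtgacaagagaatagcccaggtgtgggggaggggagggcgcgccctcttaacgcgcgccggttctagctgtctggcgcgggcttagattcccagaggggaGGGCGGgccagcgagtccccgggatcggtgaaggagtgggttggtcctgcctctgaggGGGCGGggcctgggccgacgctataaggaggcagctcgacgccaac
Cdkn1b (chr6:134920151-134920400, plus strand): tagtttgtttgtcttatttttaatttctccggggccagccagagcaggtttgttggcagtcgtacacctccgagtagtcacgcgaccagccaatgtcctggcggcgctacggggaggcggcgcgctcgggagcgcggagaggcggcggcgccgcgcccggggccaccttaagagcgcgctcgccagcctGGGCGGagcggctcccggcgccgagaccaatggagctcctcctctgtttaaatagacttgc
Cdkn2d (chr9:21291210-21291459, minus strand): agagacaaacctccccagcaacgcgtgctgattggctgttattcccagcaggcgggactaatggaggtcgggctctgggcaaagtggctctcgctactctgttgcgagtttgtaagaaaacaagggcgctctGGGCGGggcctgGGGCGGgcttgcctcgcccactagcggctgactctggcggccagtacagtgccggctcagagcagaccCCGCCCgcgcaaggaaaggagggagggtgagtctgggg
No entry for Cdkn1c was found in the promoter table, in which 6 of the 7 genes matched with 9 promoters. The table came from RefSeq, build GRCm38.p6.

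These promoters differed in base composition. Over the 300 bases from 250 before to 50 after the start, the median of all 32851 promoters in the table was 52.7% GC with an observed-to-expected CpG ratio of 0.38. The Arf promoter had 77.0% GC and a CpG ratio of 1.0, and the upstream promoter of Cdkn2c had 73.3% GC and a ratio of 0.82. The Ink4a promoter, further into the same gene, had 60.3% GC and a ratio of 0.44, and the downstream promoter of Cdkn2c had 44.0% GC and a ratio of 0.55. Composition did not separate the marked genes from the unmarked one, since Cdkn2d had 66.3% GC and a ratio of 0.68, above the 57.7% GC of Cdkn2b. The lowest CpG ratio of the 9, 0.089, belonged to the upstream start of Cdkn1a. In the full 300 bases, searched on both strands and without overlap between the motifs, GGGCGG occurred at 7 of the 9 member promoters and in 35.7% of all promoters, with 5 matches at Cdkn2d, 4 at the upstream start of Cdkn2c and 3 at Arf. CACGTG, the E-box that Myc and its partner Max can bind, occurred at 1 of the 9, the downstream start of Cdkn2c, within the 50 bases after the start, and in 7.15% of all promoters.

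H3K4me3 was listed at the start sites of 7 of 7 members in each culture, beside 62.2% of all genes in LIF-ESCs against 63.3% in Myc-ESCs. Suz12 was listed at 4 of the 7 in LIF-ESCs, where 12.1% of all genes had it, and at 5 in Myc-ESCs, where 14.6% had it. H3K27me3 was listed at 3 of the 7 in LIF-ESCs against 3.82% of all genes (95% Wilson interval 3.59 to 4.06%), and at 5 in Myc-ESCs against 10.7% (10.4 to 11.1%). The Wilson intervals cover counting error over genes only. Over 6 of the 7 genes, a Suz12 or H3K27me3 peak was present in at least 1 culture, compared with 17.5% of all genes. H3K4me3 and Suz12 together were found at 4 members in LIF-ESCs (11.1% of all genes) and 5 in Myc-ESCs (14.1%). All 3 marks met at 3 members in LIF-ESCs (2.77% of all genes) and at 4 in Myc-ESCs (8.87%).

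The lists themselves differed in length between the cultures. The Myc-ESC list held 16717 H3K27me3 peaks against 3120 in LIF-ESCs and covered 5.52 times as many bases, the Suz12 lists held 13907 and 11305 peaks with 1.51 times as many bases, and the H3K4me3 lists covered nearly equal lengths, at a ratio of 0.977. A deeper or cleaner library gives a longer list, so a change in the mark and a change in detection cannot be told apart from the lists alone. Each peak has a score, which MACS derives from the logarithm of its p-value and which grows with depth. Of the H3K27me3 peaks, 89.1% in LIF-ESCs compared with 79.8% in Myc-ESCs scored under 100, and most were short, with medians of 157 and 162 bp. The score of 3100, at which several peaks below stand, was shared by 4006 H3K4me3 peaks in LIF-ESCs and 522 Suz12 peaks in Myc-ESCs, so it does not rank them.

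The labelled cell type was checked on genes listed for that purpose, with earlier results of these data known. All 8 ESC genes (Pou5f1, Sox2, Nanog, Klf4, Esrrb, Zfp42, Dppa3 and Utf1) had H3K4me3 at a start site in both cultures. Of 8 regulators of other lineages, such as Gata4, Pax6 and T, all 8 had Suz12 in both cultures, and H3K27me3 stood at 5 in LIF-ESCs against 8 in Myc-ESCs. H3K4me3 was also listed at 7 of these 8 in LIF-ESCs and at all 8 in Myc-ESCs, so it hardly separated the sets. Of the ESC genes, Dppa3 had both Polycomb marks in both cultures, Esrrb had Suz12 in both and H3K27me3 in Myc-ESCs, and Klf4 had Suz12 in Myc-ESCs.

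**Figure D1:**
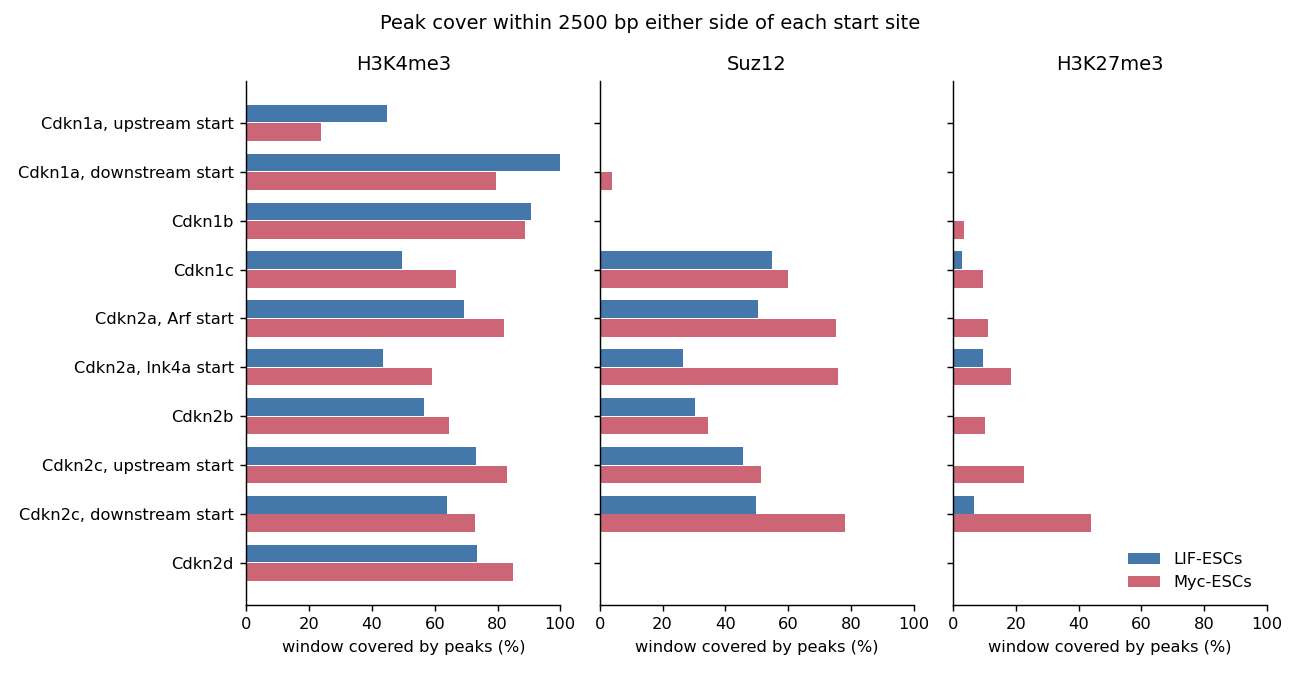
Share of the 5001 bp window around each start site (percent, horizontal axis) that lay in peaks of H3K4me3, Suz12 and H3K27me3 in LIF-ESCs (blue) and Myc-ESCs (red), 1 deposited list per bar and no error bars because no replicate lists were used. Every window has H3K4me3 in both cultures, Suz12 is long at Cdkn1c, Cdkn2a, Cdkn2b and Cdkn2c, and H3K27me3 covers at most 9.50% of a window in LIF-ESCs compared with 44.1% in Myc-ESCs.

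Among the Cip/Kip genes, Cdkn1a encodes p21, the inhibitor that p53 induces after DNA damage. It lies at chr17:29090979-29100722 on the plus strand, with start sites 2790 bp apart, and the shorter transcript begins at the downstream site. In LIF-ESCs a single H3K4me3 peak of 6027 bp with a score of 3106 covered 100% of the window at the downstream start and 44.9% of that at the upstream start. In Myc-ESCs the peak was 4269 bp long with a score of 2783 and covered 79.5% and 23.8%. The peak began 258 bp after the upstream start in LIF-ESCs and 1313 bp after it in Myc-ESCs, so this start lay outside the peak in both cultures. Over the whole gene, the start-site windows held 5033 covered bases in LIF-ESCs against 3978 in Myc-ESCs. Of the 15958 genes with H3K4me3 in both cultures, 2.04% had a lower difference than the −1055 bp of Cdkn1a (Myc-ESCs minus LIF-ESCs), and the median difference was 142 bp. The windows of Cdkn1a span 7791 bp, against a median of 5001 bp, which allows a larger difference.

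Cdkn1a had no H3K27me3 peak in either list, and the nearest such peak to a start site lay 145846 bp away in Myc-ESCs and 1765098 bp in LIF-ESCs. A Suz12 peak was listed in Myc-ESCs only, at chr17:29094540-29094735, in intron 1 and 771 to 966 bp after the downstream start. It was 196 bp long with a score of 69.3, and only 8.95% of genes called for Suz12 in that list had fewer bases covered. The nearest LIF-ESC Suz12 peak was 227723 bp from that start. Suz12 in Myc-ESCs only was found at 1 of 7 members and at 3.82% of all genes, and in LIF-ESCs only at 0 members and 1.28% of all genes. Of genes that had H3K4me3 but no Suz12 in LIF-ESCs, 7.00% had a Suz12 peak in Myc-ESCs, among them 1 of the 3 members in that class. The sequence of the peak is given because it is the whole of the Suz12 listed at Cdkn1a, with each CpG in capitals, on the plus strand.
Cdkn1a, Suz12 peak in Myc-ESCs: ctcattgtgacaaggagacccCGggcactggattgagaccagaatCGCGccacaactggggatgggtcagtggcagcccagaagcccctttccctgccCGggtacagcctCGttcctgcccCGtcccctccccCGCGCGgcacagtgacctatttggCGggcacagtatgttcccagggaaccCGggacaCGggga
It held 12 CpG at 64.8% GC, an observed-to-expected ratio of 0.59.

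Cdkn1b encodes p27, which holds cells in quiescence and is degraded when they enter the cycle. It lies at chr6:134920401-134925525 on the plus strand. Its H3K4me3 was nearly equal in the cultures, with 2 peaks that covered 4543 bases of the window in LIF-ESCs compared with 4431 in Myc-ESCs, each with a highest score of 3100. The nearest Suz12 peak was 126584 bp away in LIF-ESCs, and 125767 bp away in Myc-ESCs. An H3K27me3 peak of 177 bp with a score of 58.7 was listed in Myc-ESCs only, at chr6:134918728-134918904, which is at −1673 to −1497 bp from the start and at the upstream edge of the H3K4me3 peak. In LIF-ESCs the nearest H3K27me3 peak was 1076783 bp from the start. Of genes with H3K4me3 and neither Polycomb mark in LIF-ESCs, 4.11% had H3K27me3 in Myc-ESCs, among them 1 of 3 such members. The sequence of this peak is shown beside that of Cdkn1a for its contrast in CpG, again with each CpG in capitals and on the plus strand.
Cdkn1b, H3K27me3 peak in Myc-ESCs: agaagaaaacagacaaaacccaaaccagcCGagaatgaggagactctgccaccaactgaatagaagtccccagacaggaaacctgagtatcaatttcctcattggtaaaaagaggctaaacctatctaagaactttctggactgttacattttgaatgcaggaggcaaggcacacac
It held 1 CpG at 43.5% GC, a ratio of 0.12. Both of these lone peaks scored under 100, and neither is in the lists when a score of at least 100 is required.

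**Figure D2:**
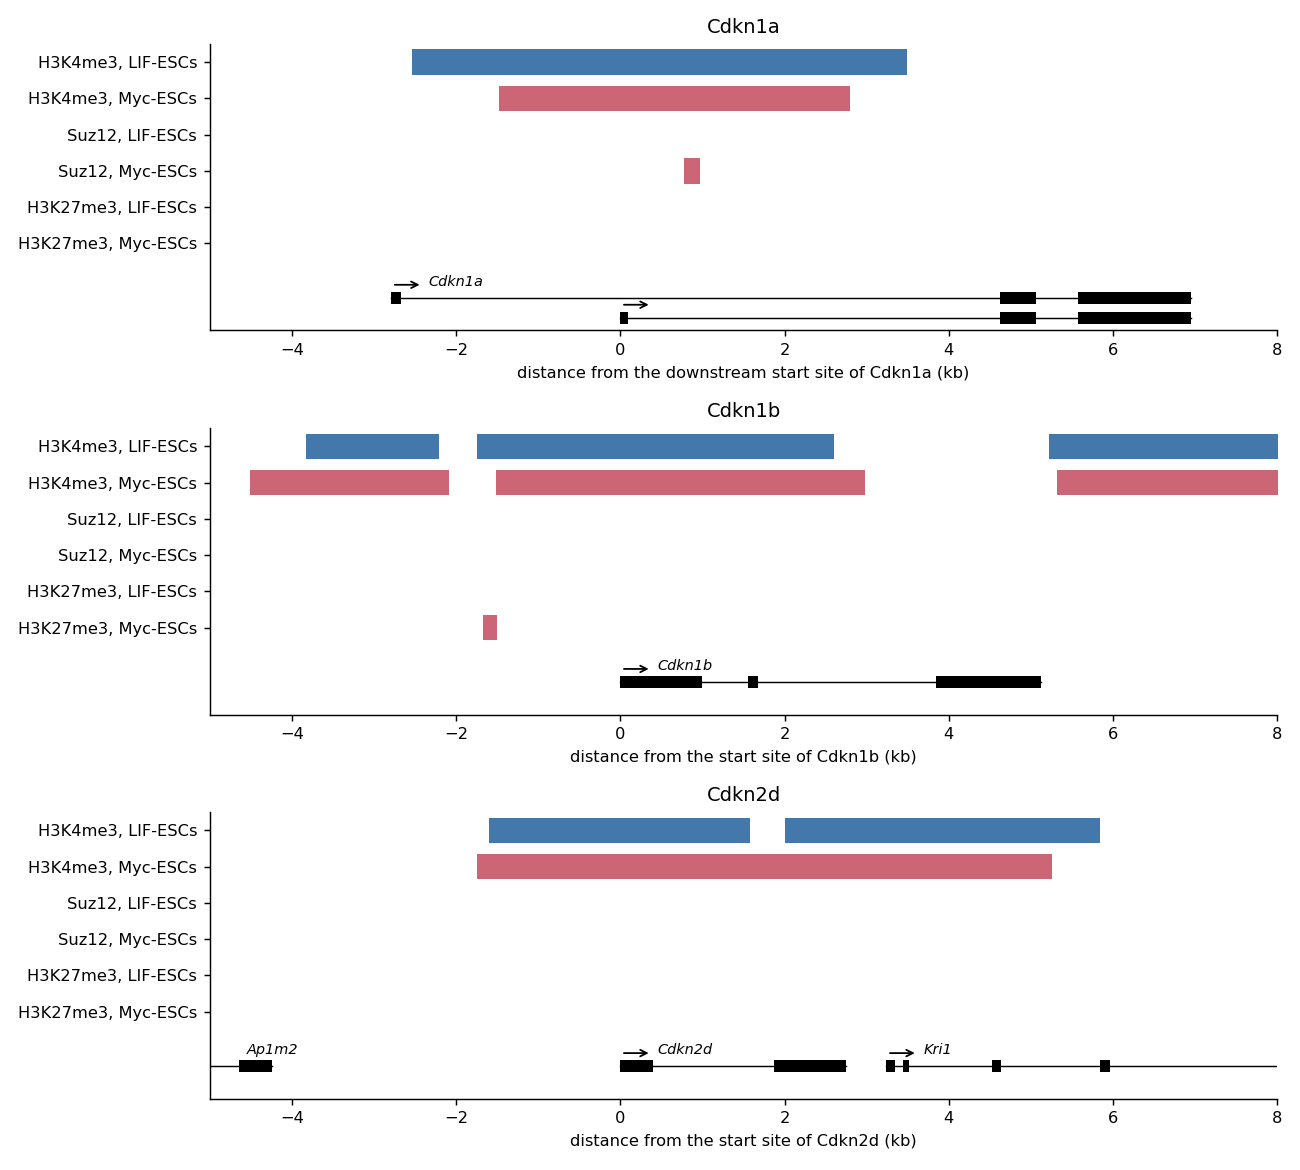
Peaks along Cdkn1a, Cdkn1b and Cdkn2d, drawn to scale against the distance from a start site (kb, horizontal axis) in the direction of transcription, with LIF-ESC peaks in blue, Myc-ESC peaks in red, exons as black boxes and arrows at the start sites. Apart from H3K4me3, the panels hold 2 peaks, the 196 bp Suz12 peak in Cdkn1a and the 177 bp H3K27me3 peak upstream of Cdkn1b, both in Myc-ESCs.

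Cdkn1c encodes p57, an imprinted gene that is expressed from the maternal allele, and the lists do not separate the alleles. It lies at chr7:143458339-143461050 on the minus strand and is only 2712 bp long. It differed from the other Cip/Kip genes in that Suz12 spanned nearly the entire gene in both cultures. In LIF-ESCs a Suz12 peak of 2553 bp with a score of 1842 reached from 60 bp before to 2492 bp after the start. In Myc-ESCs the peak was 2992 bp long with a score of 3100 and ran from 44 to 3035 bp after the start. The share of the gene body in Suz12 peaks was 99.4% and 98.4%. The start-site window held 2745 bases of Suz12 in LIF-ESCs against 2994 in Myc-ESCs, a ratio of 1.09 that was below the median ratio of 1.38 for genes with Suz12 in both cultures.

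H3K4me3 at Cdkn1c was the lowest-scoring of the members. It was 2612 bp long with a score of 251 in LIF-ESCs and 3920 bp with a score of 385 in Myc-ESCs, and the Myc-ESC peak began at −846 bp. H3K27me3 was sparse within the dense Suz12. In LIF-ESCs a 146 bp peak with a score of 59.2 lay at −1428 to −1283 bp from the start and another of 153 bp lay in exon 4. That second peak began 2541 bp after the start and so just outside the window. In Myc-ESCs 4 peaks lay over the end of the gene, the highest in exon 4 with 330 bp and a score of 143, and no peak remained at the upstream position. The gene body thus had 5.64% of its bases in H3K27me3 peaks in LIF-ESCs compared with 24.7% in Myc-ESCs. The LIF-ESC and Myc-ESC calls at the start site came from different positions, since the upstream peak overlapped no Myc-ESC peak.

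Cdkn2a of the Ink4 family, at chr4:89274473-89294619 on the minus strand, encodes 2 unrelated proteins from different first exons, Arf, which stabilizes p53, and p16-Ink4a, which inhibits Cdk4 and Cdk6. Its start sites are 12427 bp apart, and they differed in their marks. At the Arf start, H3K4me3 was strong in both cultures, with a peak of 3469 bp and a score of 1832 in LIF-ESCs and 4113 bp and 1781 in Myc-ESCs. At the Ink4a start the H3K4me3 peak had 2173 bp and a score of 330 in LIF-ESCs and 2953 bp and 421 in Myc-ESCs. Suz12 covered 2526 bases of the Arf window in LIF-ESCs against 3761 in Myc-ESCs, with highest scores of 477 and 1349. At the Ink4a window it covered 1318 bases in LIF-ESCs, in 4 separate short peaks with a highest score of 229, and 3794 in Myc-ESCs, in 4 peaks with a highest score of 1322. Suz12 thus covered 26.4% of the Ink4a window and 50.5% of the Arf window in LIF-ESCs, whereas it covered 75.9% and 75.2% in Myc-ESCs.

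H3K27me3 at Cdkn2a was confined in LIF-ESCs to the Ink4a side of the gene, with 0 bases in the Arf window. Its main peak there was 1196 bp long with a score of 577, and it lay at −3514 to −2319 bp from the Ink4a start, within intron 1 of the Arf transcript. It was the highest-scoring H3K27me3 peak of any member in that list. Because it ended just inside the 2500 bp limit, most of its length was not counted, and the window held 475 bases of H3K27me3 in LIF-ESCs. In Myc-ESCs a peak of 1120 bp with a score of 1065 stood at nearly the same place, −3536 to −2417 bp, and the window held 923 bases. The Arf window held 565 bases in Myc-ESCs, in 3 peaks with a highest score of 106. Over all windows of Cdkn2a, H3K27me3 covered 475 and 1488 bases in the cultures, a ratio of 3.13 beside a median of 3.07 for the 808 genes with H3K27me3 in both. The Suz12 ratio, 1.97, stood beside a median of 1.38 and below the upper quartile of 2.10. Of the 2822 genes with Suz12 in both lists, 0.461% had a larger difference in bases. Cdkn2a has windows over 10002 bp, against a median of 5001 bp, which by itself allows a larger difference.

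Cdkn2b, which encodes p15-Ink4b, an inhibitor induced by TGF-beta, lies next to it at chr4:89306289-89311032 on the minus strand. Its H3K4me3 peak had 2833 bp and a score of 1103 in LIF-ESCs, and 3221 bp and a score of 1514 in Myc-ESCs. Suz12 lay in exon 1 and intron 1 in both cultures, over 1524 bases of the window in LIF-ESCs compared with 1729 in Myc-ESCs, with highest scores of 243 and 568. No H3K27me3 peak was listed in LIF-ESCs, where the nearest lay 24704 bp from the start, inside Cdkn2a. In Myc-ESCs 3 peaks covered 507 bases of the window, all in intron 1, between 1317 and 2423 bp after the start and with a highest score of 106. Another, of 118 bp, lay in exon 2. Of the 2180 genes that had H3K4me3 and Suz12 but no H3K27me3 in LIF-ESCs, 58.5% had H3K27me3 in Myc-ESCs, so Cdkn2b was on the more frequent side of its class. H3K27me3 in Myc-ESCs only was found at 2 of 7 members, Cdkn1b and Cdkn2b, and at 7.65% of all genes, and in LIF-ESCs only at 0 members and 0.733% of all genes. H3K4me3 in 1 culture only was found at 0 members, against 2.35% of genes for Myc-ESCs and 1.21% for LIF-ESCs.

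Over the whole stretch from the end of Cdkn2a to the start of Cdkn2b, 36560 bp, the Polycomb marks covered more bases in the Myc-ESC lists. Suz12 lay over 9615 bases in 22 peaks in LIF-ESCs, or 26.3% of the stretch, and over 19234 bases in 31 peaks in Myc-ESCs, or 52.6%. H3K27me3 lay over 2052 bases in 7 peaks in LIF-ESCs (5.61%) and 5958 bases in 26 peaks in Myc-ESCs (16.3%). The whole Myc-ESC lists covered 5.52 times the LIF-ESC bases for H3K27me3 and 1.51 times for Suz12. Relative to LIF-ESCs, the rise over this stretch was thus smaller than that of the list for H3K27me3 and larger for Suz12. The whole lists are not a like set, since they also count places marked in Myc-ESCs only. For genes with the mark in both lists, the median ratio in start-site windows was 3.07 for H3K27me3 and 1.38 for Suz12. Of the LIF-ESC peaks, 21 of 22 for Suz12 and 2 of 7 for H3K27me3 overlapped a Myc-ESC peak. H3K4me3 had 4 peaks in each culture, which overlapped pairwise, 3 of them at the start sites of Arf, Ink4a and Cdkn2b. The other one lay between the genes, at −22581 to −20309 bp from the Ink4a start in LIF-ESCs, with a score of 303, and at no curated start site. Suz12 peaks within 1000 bp of each other were joined into domains, a distance chosen after the values were seen. In LIF-ESCs, Cdkn2a then had 4 separate Suz12 domains, the longest with 6244 bp over exons 2 and 3, rank 214 of 4469 by length. In Myc-ESCs the 3 of these nearest the end of the gene were 1 domain of 13808 bp, rank 91 of 5311 by length, which held the Ink4a start, and a second of 3795 bp held the Arf start. By the same rule, the longest H3K27me3 domain of Cdkn2a, upstream of the Ink4a start, had 2444 bp and rank 40 of 2286 in LIF-ESCs, and 2525 bp and rank 493 of 7971 in Myc-ESCs.

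**Figure D3:**
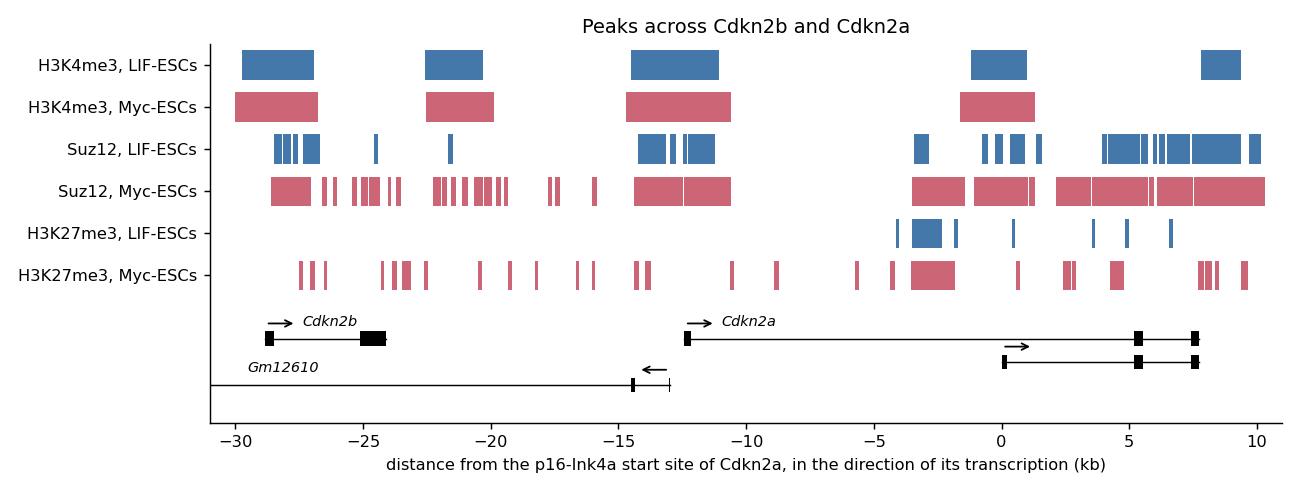
Peaks across Cdkn2b and Cdkn2a, drawn to scale against the distance from the Ink4a start site (kb, horizontal axis) in the direction of transcription, with LIF-ESC peaks in blue, Myc-ESC peaks in red, exons as black boxes and arrows at the start sites. Suz12 peaks cover 26.3% of the stretch in LIF-ESCs against 52.6% in Myc-ESCs, and the longest H3K27me3 peak of each culture lies shortly upstream of the Ink4a start.

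Cdkn2c encodes p18-Ink4c and lies elsewhere on the same chromosome, at chr4:109660876-109666756 on the minus strand, with start sites 1384 bp apart. Of the members it had the most H3K27me3 in the Myc-ESC list. In LIF-ESCs a lone peak of 335 bp with a score of 143 lay 1208 to 1542 bp after the downstream start, which is 2592 bp from the upstream start and so outside that window. In Myc-ESCs, 7 peaks covered 2205 bases of the windows with a highest score of 440, and 11 peaks covered 64.8% of the gene body, compared with 5.70% in LIF-ESCs. The ratio of covered bases in the windows, 6.58, was above the median of 3.07, and 8.91% of the genes with H3K27me3 in both lists had a larger difference in bases, though the windows of Cdkn2c, at 6385 bp, were also wider than the median. More bases of H3K27me3 in Myc-ESCs were found at 3 of 3 members with the mark in both lists and at 89.0% of all such genes.

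Suz12 at Cdkn2c covered 2484 bases of the windows in LIF-ESCs compared with 3906 in Myc-ESCs, and 43.5% and 96.3% of the gene body. In LIF-ESCs its main peak, 1842 bp long with a score of 1557, covered the downstream start, and a shorter one of 239 bp covered the upstream start. In Myc-ESCs a peak of 3211 bp with a score of 3100 covered both. Beyond the end of the gene, 7784 bp from the downstream start, begins the noncoding gene 9630013D21Rik, which had all 3 marks in both cultures. In LIF-ESCs the Suz12 peak at that gene, 3420 bp long with a score of 2888, was separate from the 4189 bp Suz12 domain of Cdkn2c, rank 376 of 4469. In Myc-ESCs the Suz12 peaks of both genes formed 1 domain of 13278 bp, rank 101 of 5311, and an H3K27me3 domain of 7863 bp with 17 peaks, rank 48 of 7971, ran from Cdkn2c to shortly before the start of the neighbour. That end was set by the joining distance of 1000 bp, since the next H3K27me3 peak began just beyond it, 8549 bp after the downstream start. Further peaks lay over the neighbour, the longest with 957 bp and a score of 495. H3K4me3 at Cdkn2c differed little, with a peak of 3655 bp and a score of 3209 in LIF-ESCs and of 4172 bp and 2425 in Myc-ESCs.

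**Figure D4:**
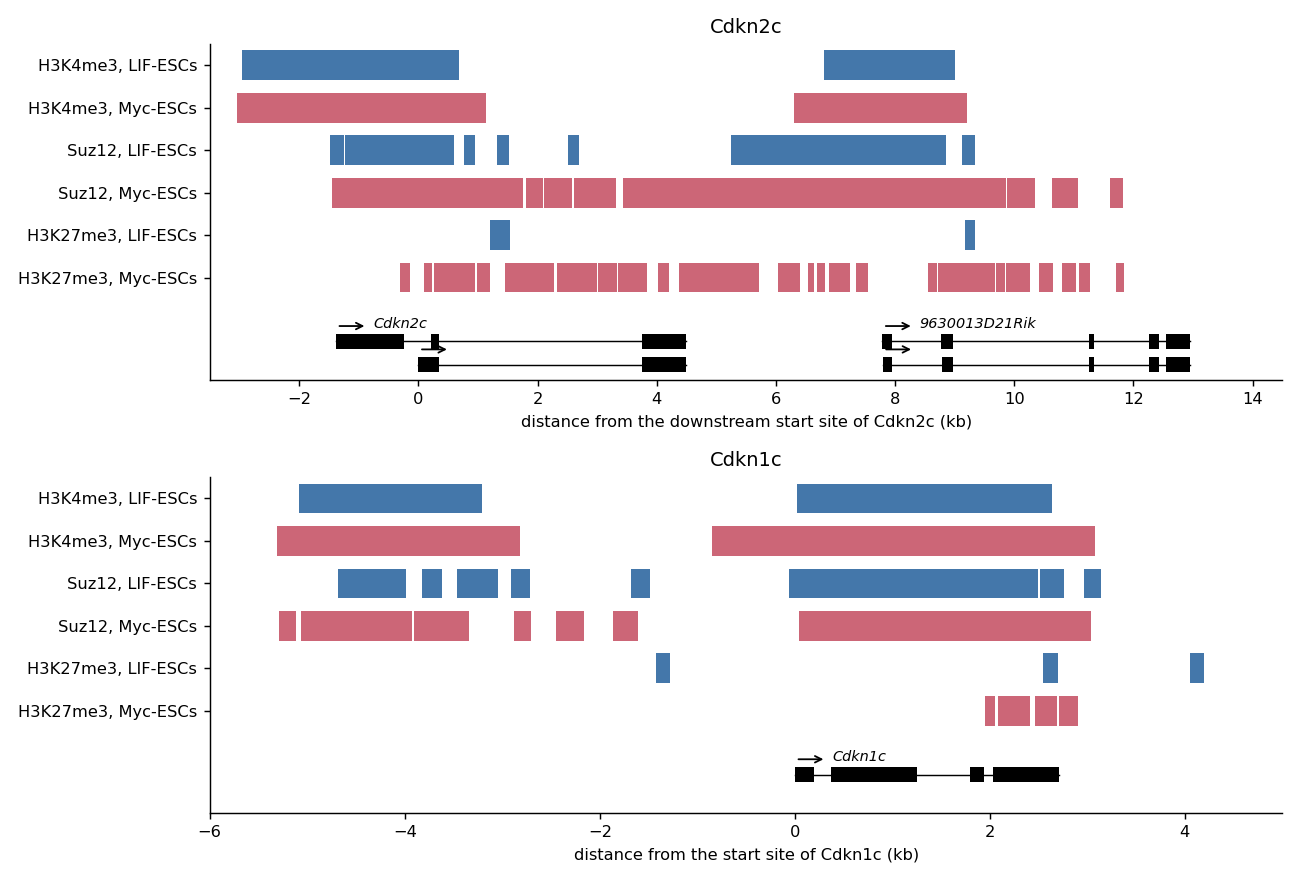
Peaks along Cdkn2c with its neighbour 9630013D21Rik (top) and along Cdkn1c (bottom), drawn to scale against the distance from a start site (kb, horizontal axis) in the direction of transcription, with LIF-ESC peaks in blue, Myc-ESC peaks in red and exons as black boxes. At Cdkn2c, H3K27me3 covers 5.70% of the gene body in LIF-ESCs against 64.8% in Myc-ESCs, whereas at Cdkn1c Suz12 covers 99.4% and 98.4% of the body and H3K27me3 5.64% and 24.7%.

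Cdkn2d encodes p19-Ink4d and lies at chr9:21288463-21291209 on the minus strand. It was marked by H3K4me3 alone, over 3680 bases of its window in LIF-ESCs, in 2 peaks, and over 4242 bases in Myc-ESCs. The LIF-ESC peak at the Cdkn2d start, from −1602 to 1583 bp, had a score of 1306. The other, with a score of 2645, lay at 2007 to 5837 bp and took in the start of Kri1, 3240 bp downstream of that of Cdkn2d. In Myc-ESCs a single peak, 7003 bp long with a score of 3100, covered the whole gene and the start of Kri1. The H3K4me3 of the genes therefore cannot be told apart at the end of Cdkn2d, and the score of 3100 belongs to both. The nearest Suz12 peaks lay 42137 bp away in LIF-ESCs compared with 42701 bp in Myc-ESCs, and the nearest H3K27me3 peaks 3481346 and 45341 bp.

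Over the gene bodies, the counts of members were close to those at the start sites. H3K4me3 was listed over 7 of 7 bodies in each culture, beside 64.2% of all genes in LIF-ESCs against 65.3% in Myc-ESCs. Suz12 was listed over 4 bodies in LIF-ESCs (12.0% of all genes) and 5 in Myc-ESCs (14.6%), and H3K27me3 over 3 in LIF-ESCs (3.79%) and 4 in Myc-ESCs (10.7%), the peak of Cdkn1b being upstream of the gene. Suz12 covered 13349 bases of the bodies in LIF-ESCs compared with 22960 in Myc-ESCs, with 26 peaks in each list. H3K27me3 covered 2540 bases in 9 peaks and 8657 bases in 30 peaks, a smaller relative rise than the 5.52 times of the whole H3K27me3 lists. For Suz12 the rise was larger than the 1.51 times of the whole lists. The whole lists count every peak and not only those over gene bodies, so they are not a like set. The equal Suz12 total held opposite differences, with 14 LIF-ESC and 10 Myc-ESC peaks over Cdkn2a, 5 and 7 over Cdkn2b as well as Cdkn2c, 2 and 1 over Cdkn1c and 0 and 1 over Cdkn1a.

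The marks lay on each other to different degrees. Of the H3K27me3 peaks at the members in Myc-ESCs, 28 of 33 overlapped a Suz12 peak of the same culture by at least 1 bp, whereas 48.0% of all H3K27me3 peaks in that list did. All 11 peaks at Cdkn2c and all 4 at Cdkn1c did so, 10 of 13 at Cdkn2a, 3 of 4 at Cdkn2b and 0 of 1 at Cdkn1b. In LIF-ESCs, 6 of 10 did, beside 46.2% of all peaks. With H3K4me3, 2 of the 10 H3K27me3 peaks in LIF-ESCs overlapped, beside 29.2% of all peaks, and 16 of the 33 in Myc-ESCs, beside 34.6%. Of the Suz12 peaks at the members, 16 of 29 overlapped H3K4me3 in LIF-ESCs and 11 of 29 in Myc-ESCs, against 67.3% and 72.6% of all Suz12 peaks. The member peaks came from start-site windows and gene bodies, whereas the shares of all peaks cover every peak of a list. Peaks of 1 gene are neighbours and not independent. The lists come from populations of cells, so they do not show whether marks were on the same DNA molecule.

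Between the cultures, the bases covered by H3K4me3 in the windows were greater in Myc-ESCs at 5 of 7 members, beside 65.0% of all genes with the mark in both lists. The exceptions were Cdkn1a and Cdkn1b, both of the Cip/Kip family, with ratios of 0.790 and 0.975, and the difference at Cdkn1b took the other sign when windows of 5000 bp were used. Among the others the ratio ran from 1.14 at Cdkn2b and Cdkn2c to 1.35 at Cdkn1c, which is also of the Cip/Kip family. For Suz12, all 4 members with the mark in both lists had more bases in Myc-ESCs, beside 81.4% of all such genes, and the ratio ran from 1.09 at Cdkn1c to 1.97 at Cdkn2a. At Cdkn1c the Suz12 difference of 249 bp took the other sign with scores of at least 100, with lists of equal length and with windows of 1000 bp.

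**Figure D5:**
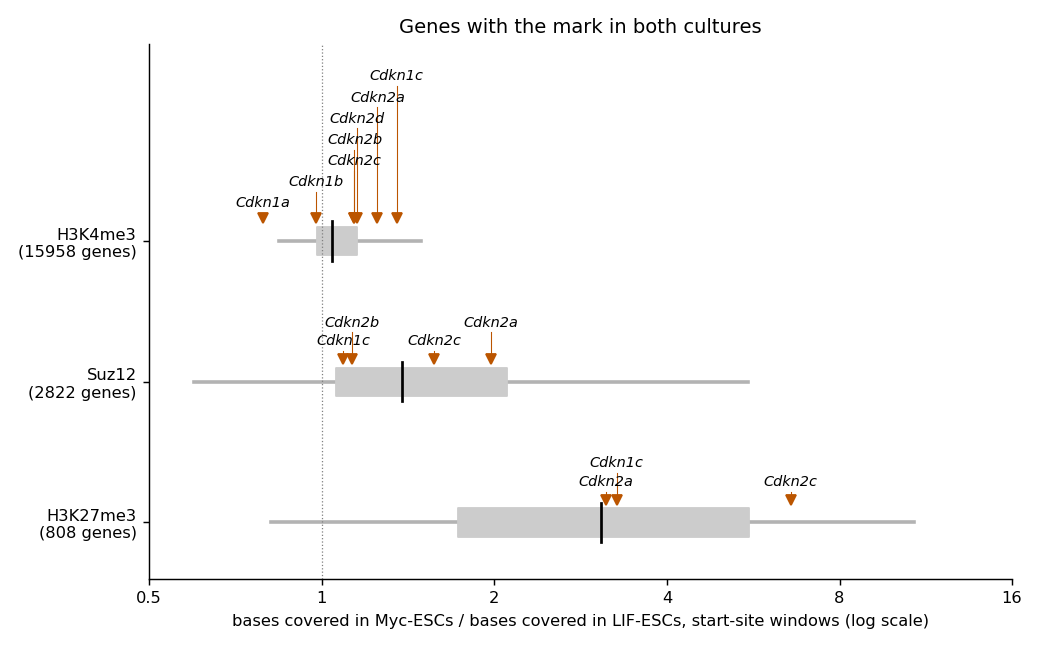
Ratio of bases covered in the start-site windows in Myc-ESCs to those in LIF-ESCs (log scale, horizontal axis) for members with the mark in both lists (triangles), over the distribution for all such genes, with the median as a black tick, the quartiles as a grey bar and the 5th to 95th percentile as a grey line. Cdkn1a lies below the 5th percentile for H3K4me3 at 0.790, and Cdkn2c above the upper quartile for H3K27me3 at 6.58.

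Genes with the same pattern of calls in all 6 lists were counted for each member. Cdkn2d shared its pattern, H3K4me3 alone in both cultures, with 11840 genes, or 45.2% of the others. The pattern of Cdkn2b was shared by 1223 genes (4.67%), that of Cdkn1c, Cdkn2a and Cdkn2c by 620 (2.37%), that of Cdkn1a by 547 (2.09%) and that of Cdkn1b by 213 (0.814%). Among the genes with the same calls, likeness was measured as the Euclidean distance of log10 of the covered bases plus 100 over the 6 lists. Nearest to Cdkn2c were Kcnk10, Msx3 and Sox1, with distances of 0.0952, 0.136 and 0.146. Nearest to Cdkn1c were Aldh1a3, Lfng and Olig1 (0.148 to 0.168), nearest to Cdkn2a were Sfmbt2, Sema6d and Wnt7b (0.264 to 0.309), and nearest to Cdkn2b were Egfr, Metrnl and Kcna3 (0.0892 to 0.118). Plk3, Rfx2 and Gm20346 were nearest to Cdkn1a (0.0318 to 0.0414), and Rnd2, Lcorl and Anks1 to Cdkn1b (0.0374 to 0.0445). Cdkn2a had the most distant nearest genes of the 6 members with a Polycomb mark, and also the widest windows, while only 15.0% of all genes span more than the length of 1 window.

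The targets and partners of the inhibitors, a list of 33 genes of the G1 to S transition with cyclins, kinases, Rb and E2F proteins, were compared with all genes. H3K4me3 was listed at 33 of 33 in both cultures. Suz12 was listed at 3 of 33 (9.09%) in LIF-ESCs and at 6 (18.2%) in Myc-ESCs, beside 12.1% and 14.6% of all genes. H3K27me3 was listed at 2 (6.06%) and 5 (15.2%), beside 3.82% and 10.7%. Ccnd2, a D-type cyclin, had the most Suz12 of the list, over 3696 bases of its window in LIF-ESCs against 3862 in Myc-ESCs, and it had H3K27me3 in both, over 135 and 475 bases. Cdk6, the kinase that Ink4 proteins bind, had 268 bases of Suz12 in LIF-ESCs compared with 2354 in Myc-ESCs and no H3K27me3, while Ccnd1 had 170 and 660 bases of Suz12. E2f6, a repressor of the E2F family, had H3K27me3 in both cultures over 513 and 499 bases, with 186 bases of Suz12 in Myc-ESCs. Both marks were listed in Myc-ESCs only at Ccna1, with 119 bases of H3K27me3 and 177 of Suz12, and at E2f8, with 306 and 1117. E2f5 had 174 bases of H3K27me3 in Myc-ESCs only and no Suz12.

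Within 100 kb of the members' start sites, 5 of 25 other genes carried Suz12 or H3K27me3 at a start site in at least 1 culture, near the 17.5% of all genes. Gm12610, a noncoding gene that is transcribed away from Cdkn2a, starts 561 bp from the Arf start and shared its Suz12 peaks. Phlda2, an imprinted neighbour 41474 bp from Cdkn1c, had 1290 bases of Suz12 in LIF-ESCs against 2236 in Myc-ESCs, with 152 bases of H3K27me3 in LIF-ESCs only. Near Cdkn2d, which had no such peak itself, S1pr5 had 199 and 392 bases of Suz12 and Pde4a 188 and 1298, the latter with 136 bases of H3K27me3 in Myc-ESCs. The fifth, 9630013D21Rik, had 3787 bases of Suz12 in LIF-ESCs compared with 4993 in Myc-ESCs, and 167 and 3262 of H3K27me3. The 10 genes near Cdkn1a and Cdkn1b carried neither mark.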

How the data were processed

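ChIP-sequencing libraries of LIF-ESCs and Myc-ESCs were made with antibodies to H3K4me3, H3K27me3 and Suz12. Per the submitters' processing notes, Bowtie2 2.2.3 and MACS 1.4.2 were used, with GRCm38 as the build. Pooling of the 2 libraries behind a list is not given in the sources used here. The authors deposited 1 peak list per culture and antibody, with a score for each peak (the MACS p-value on a log scale). No list exists here for the 4 inputs, and the depth per sample is unknown.

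Peaks were compared with 45756 curated RefSeq transcripts of 26180 symbols on 21 chromosomes, with Python 3.11.15, numpy 2.4.6, scipy 1.17.1, pysam 0.24.0 and matplotlib 3.10.9. A call needed at least 1 bp of a peak within 2500 bp of any start site of a gene. Start sites over 500 bp apart were described separately. In simulated data, 0 of 6000 interval comparisons differed from a plain loop. Shares have 95% Wilson intervals. The members and lists were chosen with earlier results of these data known. The genes named were all 7 members, genes of the G1/S list and neighbours within 100 kb that had Suz12 or H3K27me3, and the 3 genes most like each such member. The alternatives tried were lists of equal length, scores of at least 100, windows of 1000 and 5000 bp, predicted transcripts, at least 100 bp covered, and overlap between cultures.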

Additional observations from a re-analysis of the deposited data

How the results depend on the processing

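Of 126 counts of members under the alternatives, 118 stayed within 1.5 times their value and 8 moved. An equal count did not always mean the same genes. H3K27me3 in Myc-ESCs only was at Cdkn1b and Cdkn2b in the main setting. It was at Cdkn1c and Cdkn2b with scores of at least 100, and at Cdkn2c alone with windows of 1000 bp. With windows of 1000 bp, the H3K27me3 counts were 1 for LIF-ESCs, 2 for Myc-ESCs and 1 for Myc-ESCs only, and those of all 3 marks were 1 and 2, since the H3K27me3 peaks of Cdkn1b, Cdkn1c and Cdkn2b, and that of Cdkn2c in LIF-ESCs, lay further out. The H3K27me3 lists of equal length kept Myc-ESC peaks that scored at least 103.8. With them, H3K27me3 in Myc-ESCs only was at 1 member, Cdkn2b, and at 1.75% of all genes. H3K27me3 in LIF-ESCs only was then at 0 members and 2.04% of all genes. When peaks of the cultures had to overlap, H3K27me3 in LIF-ESCs only was at 1 member, Cdkn1c, and H3K27me3 in Myc-ESCs only was at 3 members. For this setting and for windows of 1000 bp, no share of all genes is given here to set beside the counts. With scores of at least 100, Suz12 in Myc-ESCs only was at 0 members and 3.70% of all genes. The H3K27me3 peak of Cdkn1b and that of Cdkn1c in LIF-ESCs were then lost. Of 105 differences in covered bases, 61 were identical, 40 had another value of the same sign or 0, some by only a few bp, and 4 took the other sign. H3K4me3 at Cdkn1b, −112 bp, was 944 bp with windows of 5000 bp. Suz12 at Cdkn1c, 249 bp, was −96 bp with scores of at least 100, −7 bp with lists of equal length and −104 bp with windows of 1000 bp. At Cdkn1b the upstream H3K4me3 peak reached −4507 bp in Myc-ESCs and −3828 bp in LIF-ESCs, both beyond the 2500 bp limit. At Cdkn1c the upstream Suz12 peaks in the window scored 56.6 and 89.1 in Myc-ESCs and 56.1 in LIF-ESCs. All lay more than 1000 bp from the start, and the lists of equal length kept Myc-ESC Suz12 peaks from a score of 58.63. No cause beyond these positions and scores was tested. No paired analysis was possible because each culture and antibody has 1 list and no result comes from a test. Depth is unknown, so it is not shown that a mark without a peak was absent.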
